A study of Mus musculus with 16 samples.

Results

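Formative stem cells, grown in the medium labelled A3XR, were compared with naive embryonic stem cells grown in the medium labelled 2iL, across all expressed genes and by function. The comparison takes the 10 bulk RNA-seq libraries of these culture conditions out of the 16 libraries of mouse pluripotent cells in the series. The formative group (FS) holds the lines 5ar1, at passages 10, 12 and 14, and 5ar3, at passages 4, 5 and 12. The naive group (ES) holds the line E14IV-C at passages 12, 13, 15 and 20. No strain or genotype is given in the labels, and the libraries of a line are passages of it, so line and medium cannot be told apart between the groups. Where nothing states that passages were separate cultures, the p-values measure the spread between libraries of a group, which may be technical. That spread was estimated over all 16 libraries of the series.

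Naive pluripotency is the state of the preimplantation epiblast, and its culture in 2iL relies on a pair of kinase inhibitors, which block the ERK pathway and the Wnt antagonist GSK3, together with the cytokine LIF. Formative pluripotency describes the epiblast soon after implantation, when cells leave the naive network, gain de novo DNA methylation and become able to respond to germ layer and germ cell inducers. From what is known of the study, A3XR holds a low level of activin, the Wnt pathway inhibitor XAV939 and an inverse agonist of retinoic acid receptors. The labels give only the abbreviations of the media.

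Library totals ranged from 22069338 to 28125328 counts over the 6 FS libraries and from 23146499 to 24635522 counts over the 4 ES libraries. The ES library of passage 12 stood apart, since the mitochondrial rRNA gene mt-Rnr2 took 38.1% of its counts, against 17.7% to 19% in the other ES libraries and 9.96% to 24.2% in FS. Values below are CPM, counts divided by library size on the TMM scale, which can be compared between libraries for 1 gene but not between genes. Differences are log2 fold changes, FS minus ES, with their standard error (SE) from edgeR's quasi-likelihood test, and calls use p-values adjusted by Benjamini-Hochberg over all 18555 genes tested, with 0.05 as the limit. A group with at most 3 counts in each library is taken as not detected, and a fold against it is a lower bound. Such a bound is the mean CPM of the higher group over the largest CPM that 3 counts make in the other, and is not a confidence limit. Bulk RNA does not tell fewer expressing cells from less RNA per cell. The gene lists and their members were chosen with earlier results of these data known. A list that moved mostly in 1 direction is therefore a description and not a test.

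Of the 18555 genes, 6102 were higher in FS, which is 32.9% of those tested, and 5543 were lower, which is 29.9%. Counts of called genes in the lists and families below stand beside these shares. A change of at least 1 on the log2 scale was found for 4525 of the higher and 3116 of the lower genes, and a change of at least 3 for 2059 and 1242. The median over all tested genes was 0.04. With total counts in place of TMM this median moved to 0.40, and 7935 genes were called higher and 3322 lower, so that 70.5% of the calls were higher against 52.4% with TMM. Small changes are read against that shift. A test against a log2 change of 1 kept 3470 higher and 2340 lower genes. With only the FS and ES libraries fitted, 17212 genes were tested, of which 5211 were higher and 4829 lower.

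**Figure D1:**
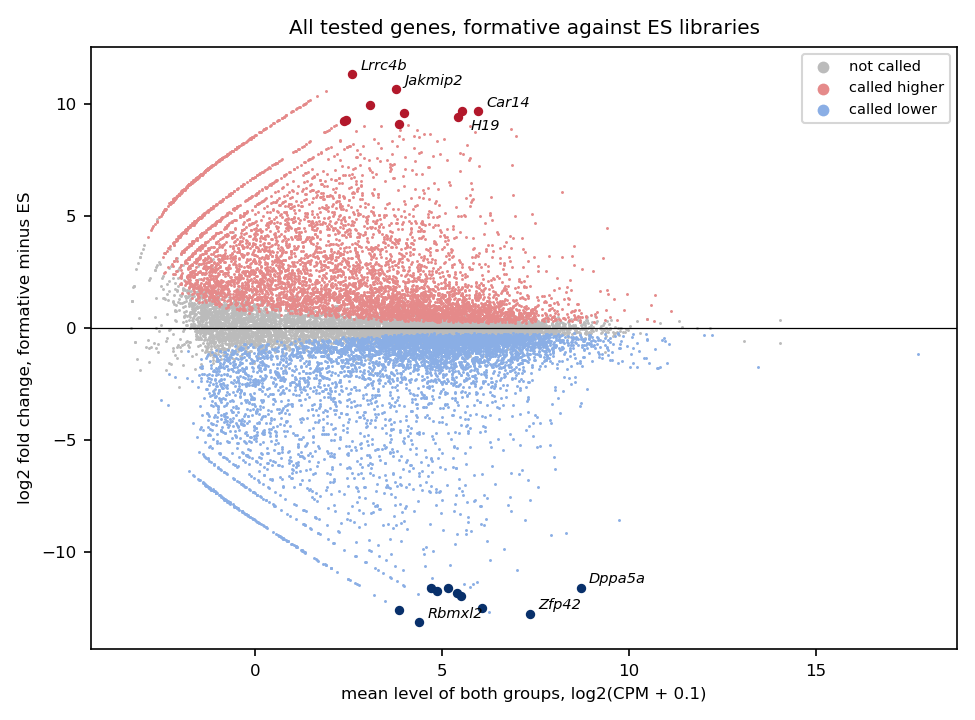
Each point is 1 of the 18555 tested genes, with its mean level over both groups on the horizontal axis (log2 of CPM plus 0.1) and its log2 fold change, formative minus ES, on the vertical axis. Dark points are the 10 named genes of each direction, whose fitted values reach 11.30 for Lrrc4b and -13.11 for Rbmxl2; curved streaks are genes with few or no counts in a group.

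Both formative lines were first set side by side with the shared ES libraries. Against ES, 5ar1 had 5542 genes higher (29.9% of those tested) and 5001 lower (27%), and 5ar3 had 5962 higher (32.1%) and 5364 lower (28.9%). These comparisons share their control libraries, so the direct comparison of the lines carries the question of whether they agree. Between 5ar1 and 5ar3, 345 genes were higher in 5ar1 (1.86%) and 375 lower (2.02%). Of the 11645 genes called between FS and ES, 527 (4.53%) were also called between the lines. In those 11645 genes the median size of the line difference was 0.30 on the log2 scale, against 1.52 for the difference between FS and ES. These genes were chosen for a difference between FS and ES, which raises the second value. Over all 18555 tested genes the medians were 0.29 and 0.79, and in the 6910 not called 0.27 and 0.24. The count of line differences is less firm than the counts against ES. It was 179 when only the 6 FS libraries were fitted and 128 in a test against a log2 change of 1. DESeq2 called 1292. Leaving out 5ar1 passage 10 gave 1567 genes, while leaving out 5ar1 passage 12, 5ar1 passage 14, 5ar3 passage 4 or 5ar3 passage 5 gave 347, 289, 381 and 352. Line and passage are partly mixed, since 5ar1 was taken at passages 10, 12 and 14 and 5ar3 at passages 4, 5 and 12. The part of passage in the line differences given here and below was not tested.

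The genes with the largest falls are described first. Zfp42 (ENSMUSG00000051176), which encodes the naive marker Rex1, was at 263, 362, 300.1 and 389 CPM at ES passages 12, 13, 15 and 20 and at most 0.111 CPM in the FS libraries, which makes it at least 2326-fold lower in FS. Dppa5a, a marker of early pluripotent cells, was at 1578, 636, 681 and 472 CPM in ES and 0.141 to 0.508 CPM (median 0.226) in FS (log2 difference -11.59, SE 0.41, adjusted p = 5.62e-13). In ES, its level at passage 12 was more than that of any other passage. Spic, a transcription factor gene of the Ets family, was at 65.4, 53.8, 51.2 and 38.95 CPM in ES and at least 370.4-fold lower. Crxos, a homeobox gene, was at least 959.5-fold lower and Triml1, of the tripartite motif family, at least 596-fold lower.

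Ooep, an oocyte and early embryo gene, was at 98.4, 54.1, 49.6 and 30.9 CPM in ES and at least 412-fold lower in FS. Pramef12 was at least 505-fold lower. The germline genes Rbmxl2, of a family of RNA-binding proteins, and Rpl10l, a retrogene copy of a ribosomal protein gene, were at least 298-fold lower and at least 646-fold lower. Bhmt2, an enzyme of methionine metabolism, was at least 205-fold lower. Rbmxl2 and Bhmt2 had no count in any FS library. Reads of Rpl10l, Dppa5a and Pramef12 may be shared with near-identical copies, so their values are uncertain.

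The largest rises were in genes at or near 0 in ES. Lrrc4b (ENSMUSG00000047085), a synaptic adhesion protein, had no count in ES and was at 6.82 to 19.3 CPM (median 11.1) in FS, at least 57.5-fold higher. Every 5ar3 library was above every 5ar1 library, at 19.3, 14.5 and 16.2 CPM against 7.12, 6.82 and 7.68 CPM. Jakmip2 was at 20.2 to 35.2 CPM (median 27.4) in FS and at least 132-fold higher. Car14, a membrane carbonic anhydrase, was at 79.2 to 144 CPM (median 131) in FS and 0.207, 0.136, 0.0911 and 0.17 CPM in ES (log2 difference 9.68, SE 0.28, adjusted p = 7.06e-14). Chst1, a sulfotransferase of keratan sulfate, was at 56.5 to 141 CPM (median 82.3) in FS and 0.0452 to 0.213 CPM in ES (log2 difference 9.41, SE 0.37, adjusted p = 2.19e-12).

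Pcdh7, a protocadherin, was at least 152-fold higher, Ms4a4d at least 51.1-fold higher and Ldb2, a LIM domain binding cofactor, at least 49.2-fold higher. Piezo2, a mechanically gated ion channel, was at least 139-fold higher, and its level in 5ar3 (54.97, 40.3 and 41.2 CPM) exceeded that in 5ar1 (15.8, 10.2 and 9.99 CPM) in each library (log2 difference 5ar1 minus 5ar3 -1.92, SE 0.27, adjusted p = 0.000594). The other 2 genes of this group, Actc1 and H19, are described with the contractile and imprinted genes.

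Core pluripotency genes split. Of 9 tested, 2 were higher and 4 lower, beside 32.9% and 29.9% of all genes, and 3 were not called. The median was 0.01. Pou5f1, which encodes Oct4, was at 737, 770.2, 722 and 637 CPM in ES and 345 to 1279 CPM (median 654) in FS, where the groups overlapped (log2 difference 0.01, SE 0.26, adjusted p = 0.972). It was at 758, 930.3 and 1279 CPM in 5ar1 at passages 10, 12 and 14 and 345, 470.2 and 549.7 CPM in 5ar3 at passages 4, 5 and 12. Every 5ar3 library lay below every ES library, while 5ar1 lay within the ES range at passage 10 and above it at passages 12 and 14. The line difference was called (log2 difference 5ar1 minus 5ar3 1.12, SE 0.19, adjusted p = 0.00262), although with only the FS libraries fitted its adjusted p was 0.0764.

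Sox2, the partner of Oct4, was at 189, 231, 231 and 190.4 CPM in ES and 39.3 to 96.2 CPM (median 82.9) in FS (log2 difference -1.44, SE 0.21, adjusted p = 1.3e-05). Nanog, which stabilises the naive network, was at 955, 798, 764 and 791 CPM in ES and 88.8 to 158 CPM (median 127) in FS (log2 difference -2.72, SE 0.19, adjusted p = 1.3e-09). Both were lower in each FS library than in any ES library. Dppa2 and Dppa4, paired chromatin factors of early embryonic genes, were at 12.99 to 20.5 CPM and 21.6 to 37.2 CPM in ES and at most 0.914 and 0.745 CPM in FS (-5.76, SE 0.65, adjusted p = 6.08e-07 and -6.98, SE 0.58, adjusted p = 1.53e-08). Utf1 was higher (1.66, SE 0.55, adjusted p = 0.0157), but in 5ar3 alone its difference from ES was 0.62 (adjusted p = 0.287). Lin28a, an RNA-binding protein that blocks let-7 miRNA maturation, was at 47.5, 69.4, 102 and 157 CPM in ES and 548 to 721 CPM (median 669) in FS (log2 difference 2.78, SE 0.25, adjusted p = 3.99e-08). The difference of Dppa4 was -7.95 without 5ar1 passage 14. The difference of Dppa2 was -6.54 without 5ar1 passage 14.

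All 16 naive pluripotency genes tested were lower in FS, with a median of -8.91 and the smallest fall at -5.26. With undetected genes at their bound the median was -8.49. Esrrb, an orphan nuclear receptor, was at 542, 707, 692 and 612 CPM in ES and 0.445 to 2.17 CPM (median 0.781) in FS (log2 difference -9.14, SE 0.39, adjusted p = 4.13e-12). Klf4, a Kruppel-like factor, was at 49.2, 107, 97.8 and 75.5 CPM in ES and 0.553 to 1.93 CPM (median 0.975) in FS (log2 difference -6.25, SE 0.28, adjusted p = 8.68e-12). Tfcp2l1, a naive transcription factor downstream of LIF, was at 1233, 2101, 1969 and 1594 CPM in ES and 1.696 to 9.86 CPM (median 4.01) in FS (log2 difference -8.57, SE 0.40, adjusted p = 1.05e-11). Prdm14, which holds back DNA methylation and ERK signalling in naive cells, was at least 351-fold lower in FS.

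Tbx3, a T-box factor, was at 81.3, 137, 129.7 and 95.8 CPM in ES and at most 0.914 CPM in FS (log2 difference -9.05, SE 0.58, adjusted p = 6.97e-10). The highest FS level of Tbx3 was in 5ar3 at passage 12, and the other 5 libraries were at 0.141 CPM or less. Dppa3, also known as Stella, was at least 171-fold lower. Pecam1, an adhesion molecule of naive cells and of endothelium, was at 129, 110.1, 112 and 109.7 CPM in ES and 0.445 to 0.663 CPM (median 0.525) in FS (log2 difference -7.72, SE 0.23, adjusted p = 1.18e-13). No naive gene was called between 5ar1 and 5ar3 by edgeR, while 16 of 16 were lower in each line against ES. Levels near 0 in FS make line differences hard to call, as for Tbx3 (-3.38, SE 1.05) and Dppa3 (1.77, SE 1.90). The lack of calls therefore does not show that the lines agree. For Tbx3, the FS libraries other than 5ar3 passage 12 held at most 3 counts.

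**Figure D2:**
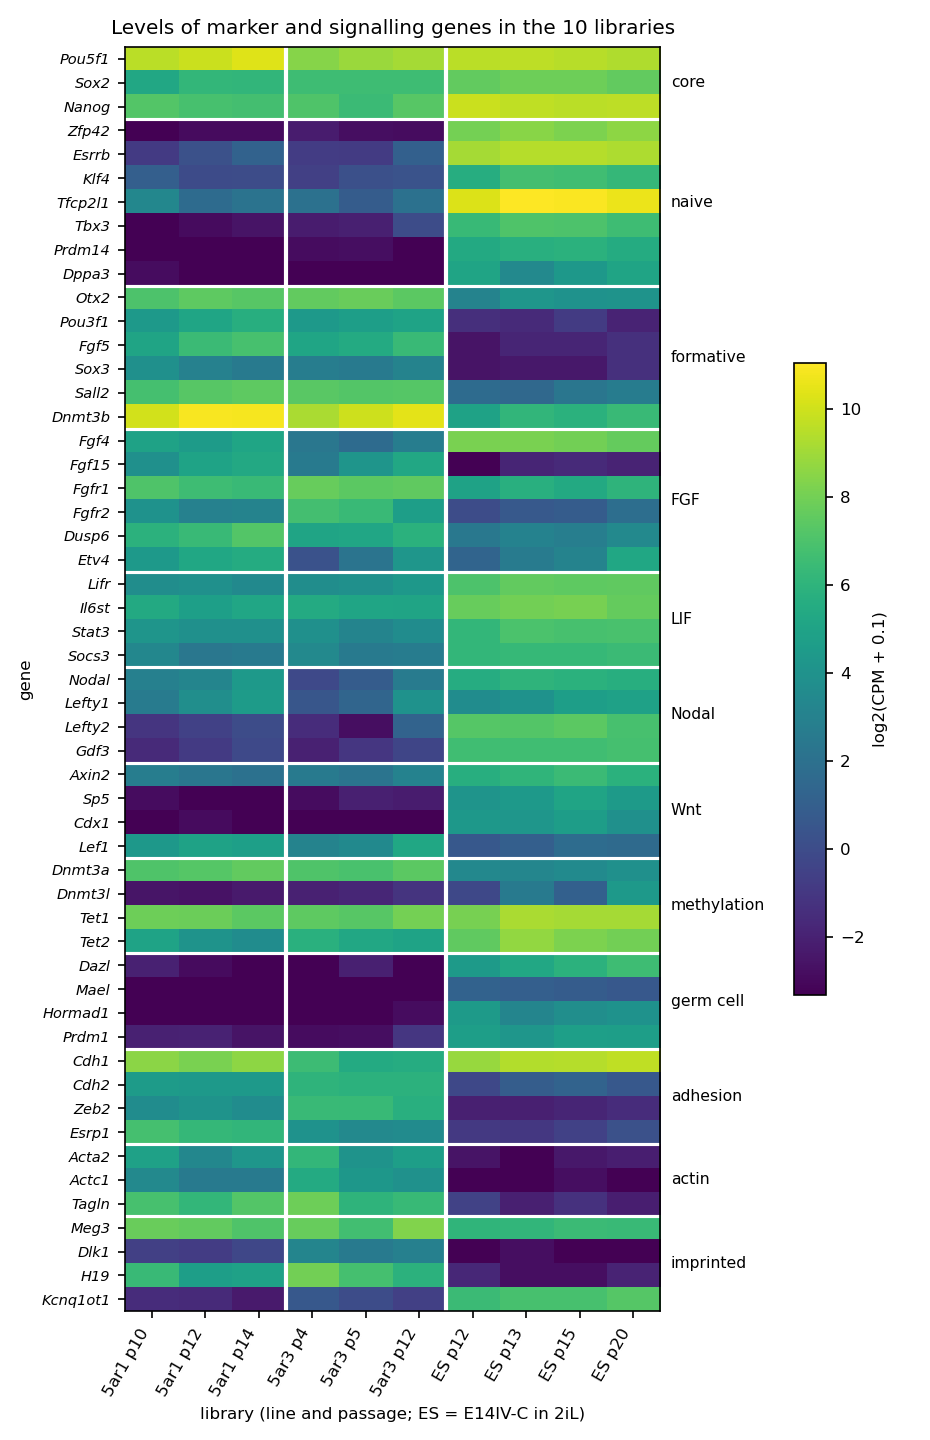
Rows are genes grouped by role and columns are the 10 libraries (5ar1 and 5ar3 in A3XR, ES in 2iL); colour gives log2 of CPM plus 0.1. The naive genes are dark in the 6 formative libraries and bright in the 4 ES libraries, the formative genes show the reverse, and Cdh1, Zeb2, Esrp1 and Dlk1 differ between the formative lines.

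Formative epiblast genes rose. Of 12 tested, 11 were higher and 0 lower, beside 32.9% and 29.9% of all genes, with a median of 3.39. Otx2, the transcription factor that drives exit from the naive state, was at 8.43, 18.6, 15.9 and 16.8 CPM in ES and 133 to 215 CPM (median 177) in FS (log2 difference 3.55, SE 0.25, adjusted p = 1.55e-09). Pou3f1, a POU factor of the postimplantation epiblast, was at 0.17 to 0.456 CPM in ES and 20.8 to 50.2 CPM (median 29.3) in FS (log2 difference 6.76, SE 0.40, adjusted p = 1.84e-10). Fgf5, the growth factor that marks the egg cylinder epiblast, was at 0.0691, 0.181, 0.182 and 0.298 CPM in ES and 33.95 to 115 CPM (median 63.9) in FS (log2 difference 8.40, SE 0.53, adjusted p = 4.18e-10).

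Sox3, a SoxB factor, was at 0.0691 to 0.298 CPM in ES and 5.89 to 14.6 CPM (median 7.33) in FS (log2 difference 5.80, SE 0.43, adjusted p = 3.73e-09), and Sall2, a zinc finger factor, at 2.75 to 6.38 CPM and 111 to 176 CPM (median 157) (log2 difference 5.12, SE 0.26, adjusted p = 2.7e-11). Etv4, an Ets factor of the ERK response, was the member not called. Its FS libraries ran from 1.11 to 45.6 CPM and its ES libraries from 2.42 to 37.1 CPM, with the highest ES value at passage 20 (log2 difference 0.65, SE 0.76, adjusted p = 0.472). With passage as a covariate Etv4 was called higher, at 2.60 (adjusted p = 0.00195). For Sox3, the ES libraries other than passage 20 held at most 3 counts.

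Among FGF and ERK genes, 14 of 20 were higher and 2 lower, beside 32.9% and 29.9% of all genes. The median was 1.94. The ligand Fgf4, through which naive cells activate ERK in themselves, was at 285, 278, 253 and 199 CPM in ES and at 31.4, 23.4 and 34.7 CPM in 5ar1 and 5.01, 3.16 and 6.58 CPM in 5ar3. It was lower than ES in both lines (log2 difference -3.86, SE 0.55, adjusted p = 1.43e-05) and lower in 5ar3 than in 5ar1 (log2 difference 5ar1 minus 5ar3 2.59, SE 0.33, adjusted p = 0.000247). Fgf15, a ligand of the postimplantation embryo, was at 0 to 0.228 CPM in ES and 5.71 to 40.7 CPM (median 24.8) in FS (log2 difference 7.27, SE 0.73, adjusted p = 1.78e-07).

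The receptors Fgfr1 and Fgfr2 were at 84.5 to 211 CPM (median 152) and 7.904 to 107 CPM (median 21.3) in FS and at 30.3 to 63.6 CPM and 0.898 to 3.61 CPM in ES (1.63, SE 0.25, adjusted p = 2.44e-05 and 4.40, SE 0.84, adjusted p = 0.000267). The feedback phosphatase Dusp6 was at 5.18, 8.13, 7.02 and 10.6 CPM in ES and 33.5 to 144 CPM (median 58.98) in FS (log2 difference 3.16, SE 0.37, adjusted p = 1.06e-06). Spry4, a feedback inhibitor, was at 0.276, 1.17, 0.228 and 6.04 CPM in ES and 1.14 to 25.5 CPM (median 6.15) in FS, so that the groups overlapped (log2 difference 2.24, SE 0.86, adjusted p = 0.0329). That call was lost without 5ar1 passage 12 or 14 or without ES passage 12, 13 or 15, with adjusted p between 0.0557 and 0.0891, and in 5ar3 alone the difference was 0.93 (adjusted p = 0.37). The difference of Spry4 was 1.64 without 5ar1 passage 14 and 4.0 without ES passage 20. Etv5, an Ets factor like Etv4, was lower (-1.49, SE 0.38, adjusted p = 0.00296). ERK is inhibited in 2iL, and the part of the medium in these differences cannot be told apart from that of the cell state.

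Genes of the LIF pathway were mostly lower. Of 14 genes tested, 1 was higher (Cish, a feedback inhibitor, 0.90) and 10 were lower, beside 32.9% and 29.9% of all genes. The median was -1.12. The receptor chain Lifr was at 129, 193, 178 and 184 CPM in ES and 11.3 to 20.1 CPM (median 13.8) in FS (log2 difference -3.56, SE 0.21, adjusted p = 2.21e-10), and its partner Il6st, or gp130, at 209, 254, 273 and 202 CPM and 27.7 to 44.3 CPM (median 35.9) (log2 difference -2.68, SE 0.14, adjusted p = 3.99e-11). The transducer Stat3 was at 73.2 to 123 CPM in ES and 8.76 to 17.9 CPM (median 14.6) in FS (log2 difference -2.96, SE 0.19, adjusted p = 5.44e-10). Among targets, Socs3 was at 73.2 to 89.6 CPM in ES and 5.099 to 10.6 CPM (median 6.27) in FS (log2 difference -3.45, SE 0.24, adjusted p = 1.45e-09), and Pim1 (-3.87, SE 0.38, adjusted p = 1.35e-07) and Bcl3 (-7.36, SE 0.50, adjusted p = 1.16e-09) were also lower. Every FS library was below every ES library for these 6 genes. For Bcl3, the FS libraries other than 5ar3 passage 4 held at most 3 counts.

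For BMP, 8 of 19 genes were higher and 4 lower, beside 32.9% and 29.9% of all genes, with a median of 0.60. The receptors Bmpr1a and Bmpr2 and the transducer Smad5 were each higher by a small amount (0.60, SE 0.10, adjusted p = 4.88e-05, 0.88, SE 0.16, adjusted p = 0.000107 and 1.09, SE 0.11, adjusted p = 2.86e-07). The ligand Bmp4 was at 2.76, 4.43, 2.14 and 7.31 CPM in ES and at 0.667, 1.34 and 0.339 CPM in 5ar1 and 8.695, 1.74 and 1.18 CPM in 5ar3 (log2 difference -0.84, SE 0.64, adjusted p = 0.261). It was called lower without 5ar3 passage 4, at -1.99 (adjusted p = 0.00073). Bmp7 was lower (-1.52, SE 0.63, adjusted p = 0.0464), a call that was lost without ES passage 12, at -1.23 (adjusted p = 0.134), and without 6 other libraries in turn. The difference of Bmp7 was -2.12 without 5ar3 passage 4.

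The targets Id1 and Id3 overlapped between the groups, with 1.91 to 7.21 CPM (median 3.64) and 1.001 to 8.63 CPM (median 6.94) in FS and 2.14 to 6.76 CPM and 0.138 to 4.97 CPM in ES (0.16, SE 0.47, adjusted p = 0.779 and 1.36, SE 0.69, adjusted p = 0.0994). Id3 was called higher without 5ar1 passage 10, at 1.57 (adjusted p = 0.039), and without ES passage 20, at 2.00 (adjusted p = 0.0384). Id4 was lower (-3.45, SE 0.56, adjusted p = 4.38e-05). With total counts as the only scaling, 10 BMP genes were higher and 2 lower. The difference of Id4 was -4.26 without 5ar3 passage 4.

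Of 19 Nodal and activin genes, 7 were higher and 7 lower, beside 32.9% and 29.9% of all genes, with a median of -0.33. The ligand Nodal was at 47.5, 65.3, 58.6 and 51.2 CPM in ES and at 7.45, 9.21 and 21.3 CPM in 5ar1 and 0.81, 1.696 and 6.204 CPM in 5ar3 (log2 difference -2.83, SE 0.55, adjusted p = 0.000287). Lefty2, an inhibitor that Nodal signalling induces, was at 153, 146, 172 and 116 CPM in ES and 0.0471 to 2.28 CPM (median 0.472) in FS (log2 difference -7.60, SE 0.52, adjusted p = 1.9e-09). Its neighbour Lefty1 overlapped between the groups, at 12.7 to 29.6 CPM in ES and 1.33 to 23.1 CPM (median 9.96) in FS (log2 difference -1.01, SE 0.58, adjusted p = 0.14), and was called lower without 5ar1 passage 14, at -1.42 (adjusted p = 0.044). The coreceptor Tdgf1 (-4.54, SE 0.68, adjusted p = 2.26e-05), the ligand Gdf3 (-7.79, SE 0.32, adjusted p = 3.28e-12) and the convertase Pcsk6 (-4.34, SE 0.17, adjusted p = 2.35e-12) were lower, where Tdgf1 may share reads with a processed copy. Gdf3 was at 97.8, 98.7, 99.4 and 110.1 CPM in ES and at most 0.813 CPM in FS. Skil, a transcriptional corepressor and target of the pathway, was at 41.9 to 49.1 CPM in ES and 109.5 to 195 CPM (median 166) in FS (log2 difference 1.77, SE 0.18, adjusted p = 1.74e-07). The difference of Nodal was -3.44 without 5ar1 passage 14. The difference of Lefty2 was -8.34 without 5ar3 passage 12.

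Among direct Wnt targets, 8 of 14 were lower and 4 higher, beside 29.9% and 32.9% of all genes. The median was -1.23. Axin2, a feedback scaffold of the pathway, was at 51.7, 66.4, 88.5 and 57.02 CPM in ES and 4.03 to 7.99 CPM (median 5.51) in FS (log2 difference -3.53, SE 0.25, adjusted p = 1.62e-09). Sp5 was at least 167-fold lower and Cdx1, a caudal homeobox factor, at least 138-fold lower in FS. Notum, a secreted inhibitor, was at 66.2, 57.9, 76.5 and 52.9 CPM in ES and at most 0.424 CPM in FS (log2 difference -8.28, SE 0.39, adjusted p = 1.17e-11), and Znrf3, an inhibitor at the membrane, was lower (-0.89, SE 0.16, adjusted p = 0.000139).

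Lef1, both a target and an effector, went the other way, at 1.45 to 3.23 CPM in ES and 8.55 to 37.7 CPM (median 23.5) in FS (log2 difference 3.22, SE 0.40, adjusted p = 2e-06). Of 19 receptors and effectors, 7 were higher and 5 lower, beside 32.9% and 29.9% of all genes, with a median of 0.25. The repressor Tcf7l1 was higher (1.12, SE 0.28, adjusted p = 0.00246), although its lowest FS library, at 12.8 CPM, lay within the ES range of 6.22 to 14.5 CPM. Fzd2 was at 3.16 to 4.42 CPM in ES and 49.7 to 74.05 CPM (median 66.3) in FS (log2 difference 4.04, SE 0.16, adjusted p = 2.31e-12), while Fzd10 (-4.94, SE 0.30, adjusted p = 3.27e-10) and Fzd5 (-1.26, SE 0.32, adjusted p = 0.00263) were lower. The 2iL medium activates the pathway and A3XR holds an inhibitor of it, so that medium and cell state cannot be told apart.

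Of 19 retinoid genes, 9 were higher and 5 lower, beside 32.9% and 29.9% of all genes, with a median of 1.12. The receptor Rarg was at 14.4 to 27.5 CPM in ES and 43.5 to 64.1 CPM (median 48.1) in FS (log2 difference 1.27, SE 0.17, adjusted p = 5.19e-06) and Rxra was higher (0.84, SE 0.17, adjusted p = 0.000418), while Rara was lower (-1.67, SE 0.24, adjusted p = 1.18e-05). Crabp2, a retinoic acid carrier, was at 0.622, 0.813, 0.683 and 1.28 CPM in ES and 17.4 to 67.1 CPM (median 26.9) in FS (log2 difference 5.44, SE 0.68, adjusted p = 2.95e-06), and Rdh10, which makes retinal, was at 3.87 to 4.92 CPM and 9.14 to 13.7 CPM (median 10.8) (log2 difference 1.34, SE 0.18, adjusted p = 4.72e-06). Cyp26a1, which degrades retinoic acid, was near 0 in ES and in 5ar1 and was at 6.93, 8.57 and 0.685 CPM in 5ar3. Its call against ES (adjusted p = 0.0297) was lost without 5ar3 passage 4 (6.71, adjusted p = 0.0667), 5ar3 passage 5 (6.51, adjusted p = 0.0534) or any 1 ES library, and in 5ar1 alone it was 1.20 (adjusted p = 0.846).

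Of 15 Notch genes, 11 were higher and 3 lower, beside 32.9% and 29.9% of all genes, with a median of 2.55. The ligands Dll1 and Dll3 were at 0.0425 to 1.24 CPM and 0.638 to 1.4 CPM in ES and 6.91 to 19.9 CPM (median 13.9) and 14.9 to 26.99 CPM (median 16.6) in FS (5.10, SE 0.73, adjusted p = 9.83e-06 and 4.31, SE 0.36, adjusted p = 1.3e-08). The glycosyltransferase Lfng, which tunes Notch receptors, was at 0.361 to 0.683 CPM in ES and 10.6 to 21.9 CPM (median 12.5) in FS (log2 difference 4.77, SE 0.29, adjusted p = 3.37e-10). The 3 lower genes were the ligand Jag1 (-1.07, SE 0.18, adjusted p = 6.32e-05), the nuclear effector Rbpj (-0.77, SE 0.12, adjusted p = 2.79e-05) and the target Hes1 (-0.70, SE 0.22, adjusted p = 0.00956), whose call was lost with total counts (-0.34, adjusted p = 0.267). The difference of Dll1 was 6.40 without ES passage 12.

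Of 11 targets of the coactivator YAP, 8 were higher and 1 lower (Nt5e, an ectonucleotidase, -2.97), beside 32.9% and 29.9% of all genes. The median was 3.04, or 2.59 with undetected genes at their bound. Cyr61, a matricellular protein, was at 3.39, 6.19, 2.64 and 7.18 CPM in ES and 37.4 to 124 CPM (median 54.7) in FS (log2 difference 3.74, SE 0.51, adjusted p = 7.74e-06). Lats2, a Hippo kinase, and Ptpn14, a phosphatase that binds YAP, were higher (4.06, SE 0.47, adjusted p = 9.47e-07 and 3.54, SE 0.35, adjusted p = 1.39e-07). Ctgf was at 67.98, 20.01 and 26.1 CPM in 5ar1 and 19.1, 3.35 and 1.18 CPM in 5ar3, against 5.78 to 10.8 CPM in ES (adjusted p = 0.0854), and it was called higher without 5ar3 passage 12 (1.74, adjusted p = 0.0151) or passage 5 (1.72, adjusted p = 0.0316).

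**Figure D3:**
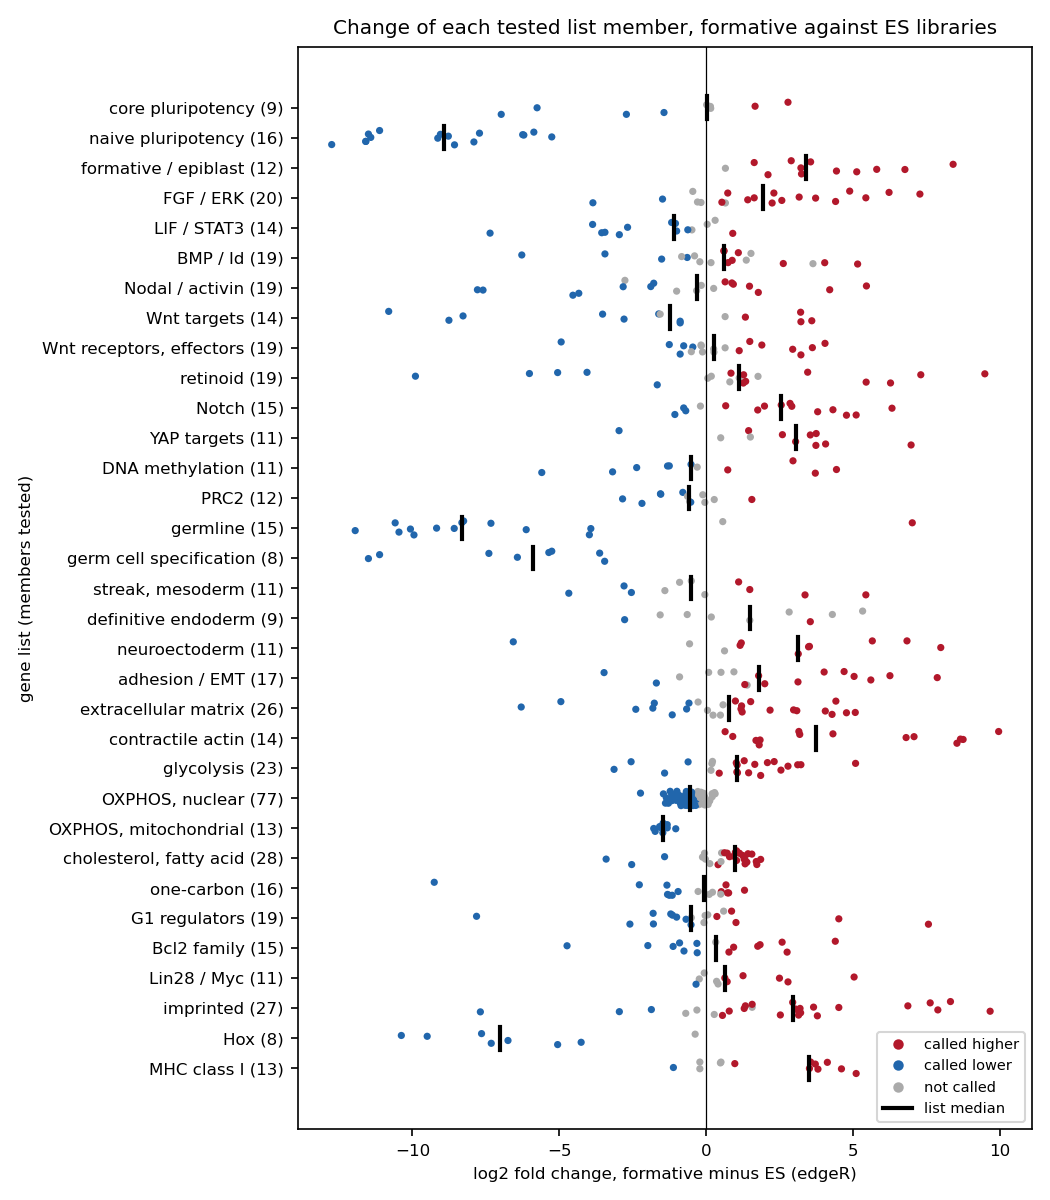
Each point is a tested member of a gene list, placed by its log2 fold change, formative minus ES, with called genes in red (higher) or blue (lower), others in grey, and the list median as a black bar. All 16 naive genes lie below -5, all 14 contractile genes above 0, and the 13 mitochondrial OXPHOS genes near -1.48.

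DNA methylation genes changed in a mixed manner, with 4 of 11 higher and 6 lower, beside 32.9% and 29.9% of all genes, and a median of -0.52. The de novo methyltransferases Dnmt3a and Dnmt3b were at 10.4, 9.57, 11.5 and 14.6 CPM and 30.8, 68.9, 57.5 and 85.5 CPM in ES and 120.1 to 190.4 CPM (median 145) and 588 to 1942 CPM (median 1239) in FS (3.71, SE 0.18, adjusted p = 2.19e-11 and 4.43, SE 0.36, adjusted p = 9.67e-09). Their cofactor Dnmt3l was at 0.76, 5.83, 2.005 and 21.2 CPM in ES and at most 0.343 CPM in FS (log2 difference -5.60, SE 0.76, adjusted p = 5.9e-06), with the ES level at passage 20 above the other passages. Uhrf1, which brings the maintenance methyltransferase to replicating DNA, was lower (-1.32, SE 0.15, adjusted p = 9e-07). The difference of Dnmt3l was -4.23 without ES passage 20.

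The TET dioxygenases, which oxidise methylated cytosine, changed in both directions. Tet1 was at 268, 587, 556 and 549 CPM in ES and 158 to 263 CPM (median 201) in FS (log2 difference -1.26, SE 0.22, adjusted p = 7.05e-05), and Tet2 at 186, 412, 293 and 257 CPM and 12.6 to 56.4 CPM (median 32.1) (log2 difference -3.19, SE 0.39, adjusted p = 1.9e-06). Tet3 was higher, at 1.59 to 6.72 CPM in ES and 22.6 to 54.4 CPM (median 28.9) in FS (log2 difference 2.95, SE 0.34, adjusted p = 9.18e-07), as was the glycosylase Tdg (0.73, SE 0.14, adjusted p = 0.000208). Zfp57, which protects methylated imprints, was lower (-2.37, SE 0.18, adjusted p = 4.97e-09).

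Of 12 genes of the Polycomb complex PRC2, 6 were lower and 1 higher (Phf19, an accessory subunit, 1.55). This stands beside 29.9% and 32.9% of all genes. The median was -0.60. The catalytic subunit Ezh2 overlapped, at 47.9 to 96.4 CPM in ES and 40.3 to 103 CPM (median 72.9) in FS (log2 difference -0.05, SE 0.22, adjusted p = 0.856), as did Jarid2 (0.27, SE 0.22, adjusted p = 0.29). The accessory subunit Mtf2 was at 1076, 499.6, 497 and 432 CPM in ES and 123 to 152 CPM (median 137) in FS (log2 difference -2.19, SE 0.20, adjusted p = 3.86e-08), and its ES level was highest at passage 12. E130012A19Rik, also named Epop, another accessory subunit, was lower (-2.85, SE 0.18, adjusted p = 5.33e-10).

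Germline genes known to be held silent by promoter methylation fell. Of the 22 on the list, 15 passed the filter on low counts, 13 were lower and 1 higher, with a median of -8.32, or -3.98 with undetected genes at their bound. For the 7 members without a count in any FS library, lower was the only direction open. Dazl, an RNA-binding protein of germ cells, was at 23.01, 38.7, 59.4 and 94.1 CPM in ES and at most 0.148 CPM in FS (log2 difference -9.95, SE 0.57, adjusted p = 1.47e-10). Hormad1, of the meiotic chromosome axis, was at 22.6, 9.303, 13.7 and 15.99 CPM in ES and at least 109-fold lower. Mael, of the piRNA pathway, was at 2.21, 1.897, 1.69 and 1.45 CPM in ES, had no count in FS and was at least 12.8-fold lower. Ddx4, an RNA helicase also called Vasa, was at 2.63, 1.94, 1.64 and 2.08 CPM in ES and at most 0.442 CPM in FS (log2 difference -3.93, SE 0.68, adjusted p = 8.45e-05). The exception was Tdrkh, a Tudor protein of the piRNA pathway, at 0.136 to 0.276 CPM in ES and 9.41 to 35.99 CPM (median 25.98) in FS (log2 difference 7.01, SE 0.47, adjusted p = 1.12e-09). Taf7l and Tex101 did not pass the filter. For Dazl, the FS libraries other than 5ar1 passage 10 held at most 3 counts. The difference of Ddx4 was -4.83 without 5ar3 passage 4.

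The RefSeq promoters of these genes (GRCm38.p6, 250 bases before to 50 after each start) were searched for the E-box CACGTG, the sequence read by MGA and MAX of a repressor complex that acts on germline genes. The motif is its own reverse complement and was counted once. It was in 6 of the 12 genes called lower that have a promoter entry (50%), beside 11.4% of the 11601 tested genes with an entry. Among all genes called lower by at least 3 on the log2 scale the share was 9.33%. List members that were not called lower, such as Taf7l, which did not pass the filter, also held the E-box. Slc25a31, Sycp1, Tdrd1, Mov10l1 and Brdt held it too, and most of these were not called lower. The share therefore describes the list and is not particular to members that fell in FS. The second motif, TCCCGC on either strand, which E2F6 of the same complex reads, was in 8 of the 12 (66.7%). Its share was 39.1% in all tested genes with an entry and 23.5% in genes called lower by at least 3. No match of the E-box overlapped a match of TCCCGC. These are descriptions of letters in a window and not of binding. The median number of CpG dinucleotides per promoter was 24 in the 12 genes, 7 in genes lower by at least 3 on the log2 scale and 19 in all.
The 100 bases before the start are shown for 4 of the 6 genes, chosen after their values were seen because the E-box, in capitals, lies near the start. Stk31 was at 0 in each FS library and at 9.398, 6.05, 6.24 and 7.48 CPM in ES, and Sycp3 at 0 to 1.66 CPM (median 0.766) in FS and 28.2, 8.49, 9.71 and 5.44 CPM in ES (log2 difference -3.98, SE 0.68, adjusted p = 7.08e-05). The difference of Sycp3 was -3.28 without ES passage 12.
Hormad1 (chr3:95559577-95559676, plus strand): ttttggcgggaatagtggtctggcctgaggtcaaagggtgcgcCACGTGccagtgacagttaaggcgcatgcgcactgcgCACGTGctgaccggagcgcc
Stk31 (chr6:49395439-49395538, plus strand): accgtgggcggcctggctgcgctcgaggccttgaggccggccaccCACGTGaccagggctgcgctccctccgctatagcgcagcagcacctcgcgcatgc
Sycp3 (chr10:88459487-88459586, plus strand): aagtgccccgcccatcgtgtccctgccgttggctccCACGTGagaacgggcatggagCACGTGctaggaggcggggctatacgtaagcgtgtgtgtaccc
Ddx4 (chr13:112652311-112652410, minus strand): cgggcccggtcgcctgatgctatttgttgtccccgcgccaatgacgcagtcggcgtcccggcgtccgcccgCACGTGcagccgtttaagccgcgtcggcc
Hormad1 and Sycp3 hold the motif 2 times in these stretches and Stk31 and Ddx4 once.

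Genes of germ cell specification were also lower, 8 of 8 tested, with a median of -5.90. Prdm1, or Blimp1, the repressor that starts the germ cell programme, was at 26.9, 18.5, 27.02 and 26.2 CPM in ES and 0.0368 to 0.381 CPM (median 0.108) in FS (log2 difference -7.40, SE 0.61, adjusted p = 1.34e-08). Tfap2c was at 44.2, 47.6, 61.9 and 55.8 CPM in ES and 0.237 to 1.22 CPM (median 0.599) in FS (log2 difference -6.43, SE 0.37, adjusted p = 1.42e-10). Nanos3, an RNA-binding protein of early germ cells, was lower (-3.63, SE 0.53, adjusted p = 1.18e-05). Prdm14 and Dppa3, given above, belong to this list as well.

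Of 11 streak and mesoderm genes tested, 4 were higher and 3 lower, beside 32.9% and 29.9% of all genes, with a median of -0.51, or -0.28 with undetected genes at their bound. T, the mesoderm factor Brachyury, was at 12.7, 3.57, 8.34 and 5.57 CPM in ES and 0.0956 to 2.505 CPM (median 0.833) in FS (log2 difference -2.80, SE 0.73, adjusted p = 0.00334). Eomes, a T-box factor of streak and epiblast, was at 1.66 to 4.72 CPM in ES and 15.5 to 45.3 CPM (median 33.1) in FS (log2 difference 3.36, SE 0.39, adjusted p = 1.05e-06). Mixl1 was at most 0.497 CPM in any library, and its difference was not called (-0.51, SE 0.69, adjusted p = 0.535). Mesp1 did not pass the filter.

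Of 9 definitive endoderm genes, 1 was higher and 1 lower (Hhex, -2.78), beside 32.9% and 29.9% of all genes. Foxa2, a pioneer factor of endoderm, was at 0.185, 0.0637 and 0.169 CPM in 5ar1 and 2.21, 4.004 and 2.44 CPM in 5ar3, against at most 0.213 CPM in ES (log2 difference 3.54, SE 1.41, adjusted p = 0.0384). That call was lost without any 1 of the 3 libraries of 5ar3 or any 1 ES library, with adjusted p between 0.0613 and 0.096, and in 5ar1 alone the difference was 0.16 (adjusted p = 0.94). Cer1, a secreted Nodal and Wnt inhibitor, was not called by edgeR (adjusted p = 0.13), but it was called higher by the DESeq2 Wald test (4.44, adjusted p = 0.00476) and by edgeR in 5ar3 alone (5.28, adjusted p = 0.0473). In 5ar3 alone 4 of the 9 endoderm genes were higher and 1 lower, and in 5ar1 alone 0 and 2, while between the lines 1 (Foxa2) was called lower in 5ar1. Sox17 and Gata6 were at or below 0.774 CPM in each library and not called either (0.17, SE 1.49, adjusted p = 0.926 and 1.48, SE 1.33, adjusted p = 0.345).

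Neuroectoderm genes divided the lines. Of 11 tested, 8 were higher and 1 lower (Olig3, at least 3.07-fold lower) in FS, beside 32.9% and 29.9% of all genes. The median was 3.13, or 1.40 with undetected genes at their bound. In 5ar1 alone 4 were higher and 2 lower, and in 5ar3 alone 8 were higher and 1 lower. Between the lines 6 of the 11 were lower in 5ar1 and 0 higher, beside 2.02% and 1.86% of all genes. Sox1, the earliest neural SoxB factor, was at 1.19, 1.31 and 1.05 CPM in 5ar1 and 27.3, 22.9 and 18.5 CPM in 5ar3, against 0.76, 0.632, 1.91 and 2.08 CPM in ES (log2 difference 5ar1 minus 5ar3 -4.27, SE 0.63, adjusted p = 0.000885). The 5ar1 level of Sox1 lay within the ES range, and the difference from ES in that line alone was -0.21 (adjusted p = 0.777).

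Nes, an intermediate filament protein of progenitors, was high in both lines, at 188 to 399.7 CPM (median 249.9) against 21.1 to 28.8 CPM in ES (log2 difference 3.51, SE 0.27, adjusted p = 5.85e-09). Pax6, a factor of neural and eye fields, was at 1.26, 0.892 and 1.49 CPM in 5ar1 and 5.12, 4.24 and 3.43 CPM in 5ar3, against 0.0456 to 0.51 CPM in ES (log2 difference 3.48, SE 0.70, adjusted p = 0.000324). Tubb3, a neuronal tubulin, overlapped with ES at passage 20 (1.15, SE 0.33, adjusted p = 0.00577). Ncam1, a neural adhesion molecule, was called higher (1.19, SE 0.43, adjusted p = 0.0236), but it was lost without 5ar3 passage 4 (0.93, adjusted p = 0.0576) or ES passage 12 (1.03, adjusted p = 0.0765), and in 5ar1 alone it was 0.09 (adjusted p = 0.826). The difference of Pax6 was 4.25 without ES passage 20.

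The adhesion and epithelial to mesenchymal transition list had 10 of 17 genes higher and 2 lower, beside 32.9% and 29.9% of all genes. The median was 1.78, or 1.39 with undetected genes at their bound. Cdh1, or E-cadherin, was at 454, 679.7, 707 and 805 CPM in ES, 369, 278 and 392 CPM in 5ar1 and 91.2, 44.2 and 46.7 CPM in 5ar3 (log2 difference -1.70, SE 0.51, adjusted p = 0.00835), a call that was lost with passage as a covariate (-1.08, adjusted p = 0.107). Cdh2, or N-cadherin, was at 0.76, 1.81, 2.32 and 1.45 CPM in ES and 20.6 to 64.9 CPM (median 41.9) in FS (log2 difference 4.69, SE 0.48, adjusted p = 2.3e-07). Vim overlapped between the groups (0.08, SE 0.20, adjusted p = 0.737). Fn1, fibronectin, was lower, at 639 to 939 CPM in ES and 40.7 to 115 CPM (median 66.9) in FS (log2 difference -3.48, SE 0.25, adjusted p = 2.02e-09). Esrp1, a regulator of epithelial splicing, and Zeb2, a repressor of epithelial genes, were both higher in FS, at 10.7 to 110.2 CPM (median 42.9) and 12.4 to 84.2 CPM (median 34.6) against at most 1.06 and 0.255 CPM in ES (6.25, SE 0.79, adjusted p = 3.86e-06 and 7.86, SE 0.89, adjusted p = 1.11e-06).

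Within FS this list differed by line, with 8 of 17 genes higher in 5ar1 and 3 lower, beside 1.86% and 2.02% of all genes. Cdh1 (log2 difference 5ar1 minus 5ar3 2.51, SE 0.28, adjusted p = 8.27e-05) and Esrp1 (log2 difference 5ar1 minus 5ar3 2.72, SE 0.24, adjusted p = 6.87e-06) were higher in 5ar1. Zeb2 (log2 difference 5ar1 minus 5ar3 -2.40, SE 0.35, adjusted p = 0.000885) and Cdh2 (log2 difference 5ar1 minus 5ar3 -1.52, SE 0.30, adjusted p = 0.00877) were higher in 5ar3. The 5 genes highest in 5ar1 relative to 5ar3 by the rule for named genes were Rab25, Mal2, Sfn, Bspry and Lad1, which include genes of epithelial trafficking and junctions. Rab25, an epithelial GTPase, was at 30.4, 22.7 and 29.3 CPM in 5ar1, 0.332, 0.141 and 0.228 CPM in 5ar3 and 7.19, 3.34, 4.65 and 3.401 CPM in ES (log2 difference 5ar1 minus 5ar3 6.81, SE 0.43, adjusted p = 3.22e-07). ES lay between the lines, so that Rab25 was above ES in 5ar1, at 2.58 (adjusted p = 9.11e-07), and below it in 5ar3, at -4.24 (adjusted p = 1.67e-07), with no call over both lines (log2 difference 1.59, SE 1.06, adjusted p = 0.203).

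Mal2, a protein of transcytosis, was at 12.8, 9.12 and 9.14 CPM in 5ar1, 0.368, 0.377 and 0.381 CPM in 5ar3 and 0.0903 to 0.553 CPM in ES (log2 difference 5ar1 minus 5ar3 4.77, SE 0.43, adjusted p = 7.1e-06). Bspry was at 12.8, 13.7 and 15.2 CPM in 5ar1, 0.921, 0.612 and 0.875 CPM in 5ar3 and 5.995 to 11.5 CPM in ES (log2 difference 5ar1 minus 5ar3 4.09, SE 0.33, adjusted p = 3.89e-06). Sfn, the epithelial protein stratifin, was at 14.5, 10.3 and 31.6 CPM in 5ar1, 2.17, 0.33 and 0.152 CPM in 5ar3 and 12.5 to 19.9 CPM in ES (log2 difference 5ar1 minus 5ar3 4.35, SE 0.77, adjusted p = 0.00502). Lad1, of anchoring filaments, was at 17.7, 10.2 and 11.4 CPM in 5ar1, 0.995, 0.612 and 1.56 CPM in 5ar3 and 17.7 to 26.6 CPM in ES (log2 difference 5ar1 minus 5ar3 3.61, SE 0.37, adjusted p = 3.27e-05). With the 6 FS libraries as 1 group, Bspry and Sfn were not called against ES (adjusted p = 0.811 and 0.532). With 1 mean per line both were called lower (-1.35, adjusted p = 7.22e-05, and -1.88, adjusted p = 0.00561), as they were in 5ar3 alone (-3.39, adjusted p = 1.08e-07, and -4.06, adjusted p = 0.000261), while Bspry was higher in 5ar1 alone (0.70, adjusted p = 0.0278). Lad1 was called lower (-1.60, SE 0.66, adjusted p = 0.0442), which was lost without 5ar3 passage 4 or 12 or any 1 ES library, with adjusted p up to 0.0938. The line difference of Sfn was 3.75 without 5ar1 passage 14. The line difference of Sfn was 6.30 without 5ar3 passage 4.

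The 5 genes lowest in 5ar1 were Insig1, Six3os1, Greb1l, Scd1 and Sox1. Six3os1, a transcript antisense to the forebrain factor gene Six3, was at 0.26, 0.287 and 0.508 CPM in 5ar1, 19.7, 17.01 and 18.9 CPM in 5ar3 and at most 0.085 CPM in ES (log2 difference 5ar1 minus 5ar3 -5.70, SE 0.83, adjusted p = 0.000859), and reads of Six3 and its antisense gene cannot be told apart where the strand setting of counting is not stated. Greb1l was at 1.45, 1.05 and 1.08 CPM in 5ar1, 81.7, 61.3 and 10.5 CPM in 5ar3 and 0.76 to 1.19 CPM in ES (log2 difference 5ar1 minus 5ar3 -5.42, SE 0.91, adjusted p = 0.00357). Within 5ar3 the level of Greb1l was lower at passage 12 than at passages 4 and 5. All 10 genes named for the lines were called between them in every setting with all libraries that gave a value, 7 or 8 for each gene, and in each of the 6 fits with 1 FS library left out. As they were picked for the largest called differences in these libraries, this was largely set by the choice. Of all 40 named genes called between the lines, 16 kept the call in every setting with all libraries.

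**Figure D4:**
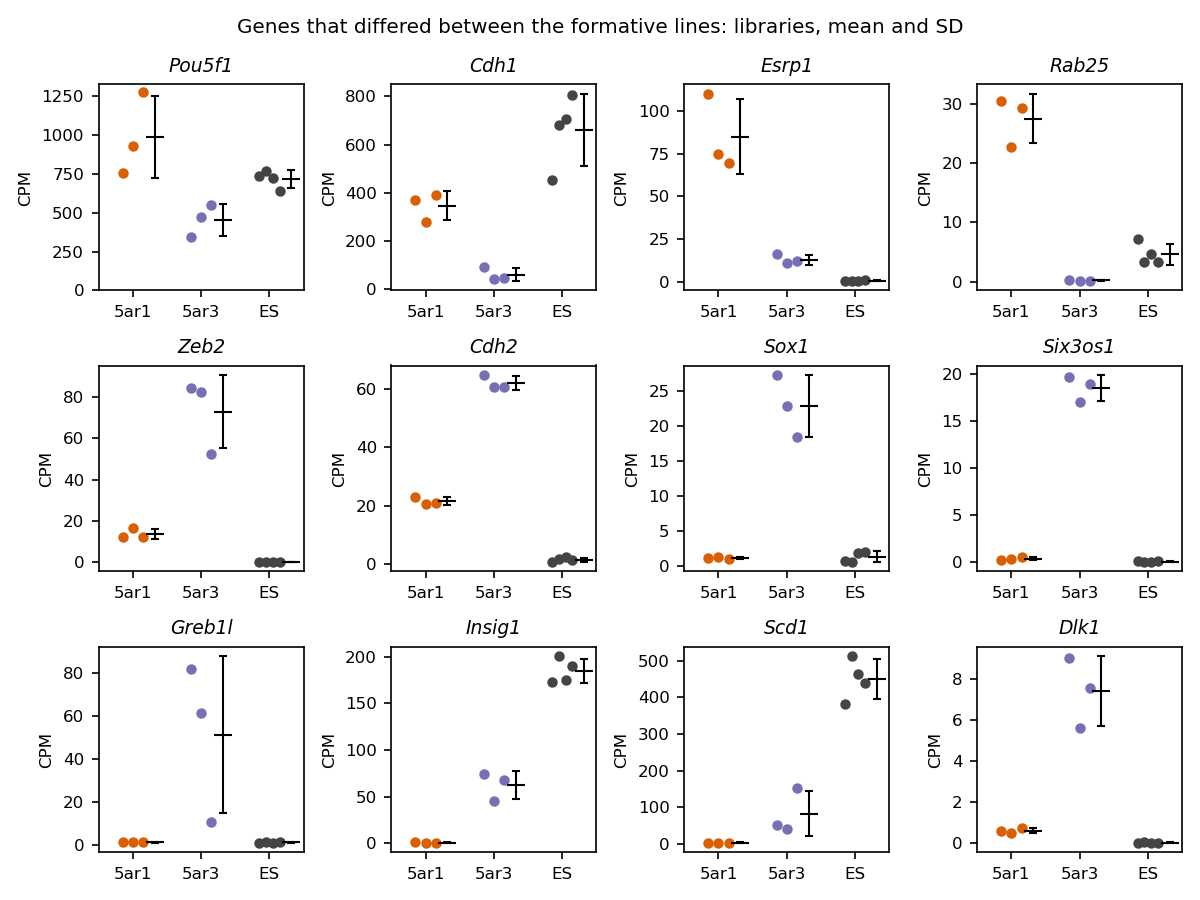
Points are the CPM of each library in 5ar1, 5ar3 and ES for 12 genes called between the formative lines, with the mean and SD beside them. Cdh1, Esrp1 and Rab25 are higher in 5ar1, Zeb2, Cdh2, Sox1 and Dlk1 in 5ar3, and for Insig1 and Scd1 both lines lie below ES.

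In the extracellular matrix, 13 of 26 genes were higher and 8 lower, beside 32.9% and 29.9% of all genes. The median was 0.78, or 0.53 with undetected genes at their bound. The basement membrane collagens Col4a1 and Col4a2 were at 0.82 to 2.59 CPM and 0.683 to 1.23 CPM in ES and 41.7 to 58.4 CPM (median 45.5) and 13.9 to 26.2 CPM (median 17.2) in FS (5.07, SE 0.31, adjusted p = 3.29e-10 and 4.28, SE 0.30, adjusted p = 2.02e-09). Col5a1 was also higher (3.08, SE 0.33, adjusted p = 3.08e-07). Lama1, a laminin chain of the same membranes, went the opposite way, at 241, 206, 309 and 169 CPM in ES and 2.9 to 12.5 CPM (median 7.85) in FS (log2 difference -4.95, SE 0.40, adjusted p = 1.25e-08). The linkers Nid1 and Nid2 were at 383 to 629 CPM and 224 to 331 CPM in ES and 4.06 to 9.43 CPM (median 6.17) and 29.4 to 81.4 CPM (median 51.5) in FS (-6.30, SE 0.32, adjusted p = 3.46e-11 and -2.40, SE 0.22, adjusted p = 6.08e-08). Itga5, a fibronectin receptor chain, was not called (0.48, SE 0.28, adjusted p = 0.142), although with total counts it was, at 0.85 (adjusted p = 0.0241). Over all collagen genes tested, 25 of 37 were higher and 3 lower, with a median of 3.08, or 2.32 at the bounds.

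All 14 contractile and actin regulator genes tested were higher in FS, with a median of 3.74. Actc1, cardiac alpha actin, was at 10.5, 5.96 and 5.69 CPM in 5ar1 and 43.5, 19.3 and 15.4 CPM in 5ar3, and at least 80.7-fold higher than in ES, where 1 of the 4 libraries had any count. Acta2, smooth muscle alpha actin, was at 10.01 to 71.6 CPM (median 22.4) in FS and at least 138-fold higher, and for both genes the highest level was in 5ar3 at passage 4. Tagln, or SM22, was at 0.128 to 0.622 CPM in ES and 64.8 to 233 CPM (median 97.8) in FS (log2 difference 8.74, SE 0.76, adjusted p = 5.15e-08). Cnn1, a calponin, was at 0.0452 to 0.207 CPM in ES and 30.7 to 66.3 CPM (median 55.1) in FS (log2 difference 8.65, SE 0.56, adjusted p = 5.72e-10), and Myl9, a myosin light chain, at 0.0903 to 0.425 CPM and 21.1 to 58.2 CPM (median 25.6) (log2 difference 7.07, SE 0.54, adjusted p = 5.39e-09).

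The fibroblast marker list moved with this group: 8 of its 9 tested genes were higher in FS, and their summed level was between 20.5 and 45.8 CPM (median 36.6) in FS against 5.36 to 5.47 CPM in ES. Dcn and Twist2 were at 0 in ES. Of the defining fibroblast genes, Col1a1 was at 0.406 to 3.01 CPM (median 1.52) in FS (log2 difference 2.97, SE 0.64, adjusted p = 0.000606), Col3a1 at 0.26 to 1.602 CPM (median 0.697) and Dcn at 0.471 to 2.298 CPM (median 1.36), while Lum did not pass the filter. Thy1 was at 7.58 to 19.4 CPM (median 13.7) in FS and 0.0911 to 0.226 CPM in ES (log2 difference 6.23, SE 0.39, adjusted p = 4.27e-10). The part of fibroblasts in the contractile result was not tested. The difference of Col1a1 was 3.72 without ES passage 20.

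Serum response factor, encoded by Srf, drives actin genes through the CArG box, in which a pair of C and a pair of G flank A or T letters. This motif, its own reverse complement as a pattern and counted once, was in the promoters of 5 of the 13 contractile genes with a RefSeq entry (38.5%), beside 1.67% of the 11601 tested genes with an entry. Their promoters are shown with the motif in capitals, as the 100 bases before the start, or 200 for Myl9, and Acta1, Srf and Cnn2 were chosen after their values were seen. Acta1 was at 2.87 to 25.6 CPM (median 9.57) in FS and 0 to 0.226 CPM in ES (log2 difference 6.80, SE 0.97, adjusted p = 1.14e-05), Srf at 61.6 to 97.8 CPM (median 84.7) and 15 to 32.02 CPM (log2 difference 1.69, SE 0.19, adjusted p = 6.49e-07) and Cnn2 at 52.2 to 106 CPM (median 82.7) and 19.9 to 26.7 CPM (log2 difference 1.83, SE 0.24, adjusted p = 4.13e-06). For Acta1, the ES libraries other than passage 13 held at most 3 counts.
Actc1 (chr2:114052876-114052975, minus strand): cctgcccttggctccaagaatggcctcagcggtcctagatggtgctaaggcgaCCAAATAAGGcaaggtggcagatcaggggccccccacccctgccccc
Acta1 (chr8:123894776-123894875, minus strand): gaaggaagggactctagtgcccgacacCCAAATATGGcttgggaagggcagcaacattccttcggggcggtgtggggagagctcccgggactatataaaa
Srf (chr17:46556163-46556262, minus strand): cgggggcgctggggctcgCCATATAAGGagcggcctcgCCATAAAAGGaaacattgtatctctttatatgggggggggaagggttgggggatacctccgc
Myl9 (chr2:156775264-156775463, plus strand): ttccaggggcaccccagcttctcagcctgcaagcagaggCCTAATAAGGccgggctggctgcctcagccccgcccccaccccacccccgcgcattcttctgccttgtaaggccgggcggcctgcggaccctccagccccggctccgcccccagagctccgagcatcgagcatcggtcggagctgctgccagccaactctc
Cnn2 (chr10:79988500-79988599, plus strand): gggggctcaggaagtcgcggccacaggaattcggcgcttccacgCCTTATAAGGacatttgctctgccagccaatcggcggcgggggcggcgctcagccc
Srf holds 2 matches and the others 1 each. A match is not a site of binding.

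**Figure D5:**
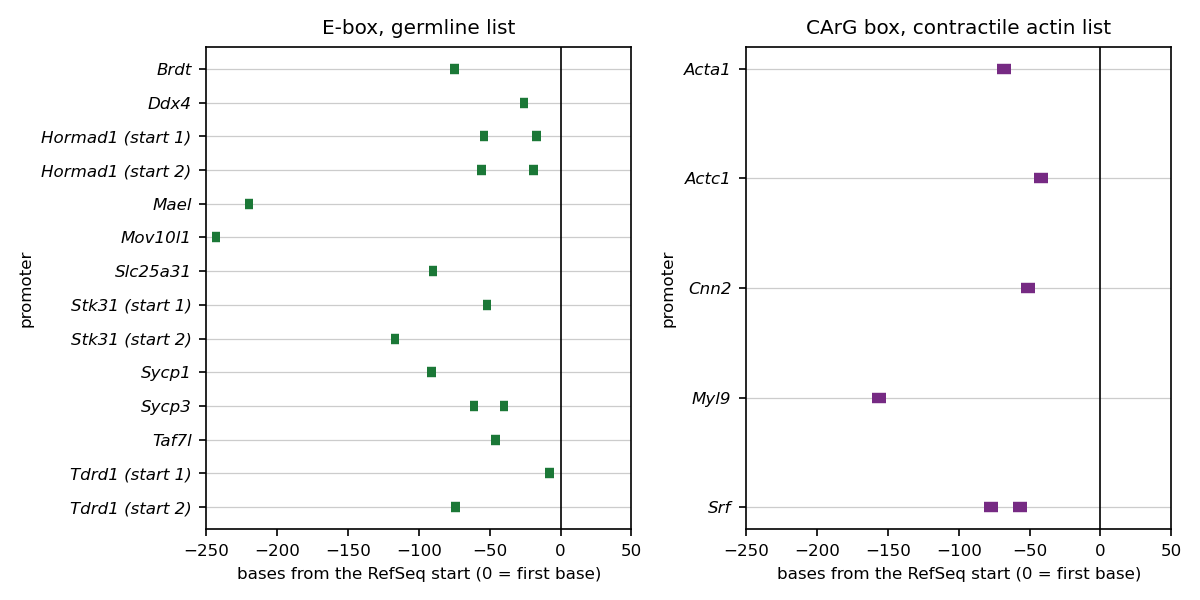
Positions of the E-box in promoters of germline genes (left) and of the CArG box in promoters of contractile genes (right), in bases from each RefSeq start, for every entry of the lists that holds the motif. The E-boxes lie between -246 and -6 and the CArG boxes between -161 and -38.

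Metabolic genes changed with a pattern by pathway. Of 23 glycolysis genes, 16 were higher and 4 lower, beside 32.9% and 29.9% of all genes, with a median of 1.06. The glucose transporter Slc2a1 was at 130.5, 141, 139.5 and 207 CPM in ES and 662 to 1246 CPM (median 816) in FS (log2 difference 2.54, SE 0.22, adjusted p = 2.34e-08), and the lactate exporter Slc16a3 at 6.22, 6.14, 4.602 and 21.6 CPM and 269 to 534 CPM (median 288) (log2 difference 5.08, SE 0.41, adjusted p = 1.12e-08). Pfkl, a phosphofructokinase, was at 55.5 to 87.8 CPM in ES and 552 to 728 CPM (median 633) in FS (log2 difference 3.22, SE 0.15, adjusted p = 1.23e-11), and pyruvate kinase Pkm at 796 to 952 CPM and 2214 to 2600 CPM (median 2479) (log2 difference 1.44, SE 0.10, adjusted p = 1.53e-09). The 4 lower genes were hexokinases Hk1 (-2.56, SE 0.18, adjusted p = 1.49e-09) and Hk2 (-0.62, SE 0.21, adjusted p = 0.0152), Pfkp (-1.42, SE 0.22, adjusted p = 1.95e-05) and lactate dehydrogenase Ldhb (-3.14, SE 0.20, adjusted p = 4.36e-10). The Hk2 call was lost without ES passage 20 (-0.47, adjusted p = 0.0743) and with total counts (-0.30, adjusted p = 0.323). Slc2a3 overlapped and was not called (0.19, SE 0.41, adjusted p = 0.708). The difference of Slc16a3 was 5.86 without ES passage 20.

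Genes of oxidative phosphorylation were mostly called lower, and for those in the nucleus this depended on the scaling. All 13 genes encoded in mitochondrial DNA were lower, with a median of -1.48. Among them mt-Nd1 of complex I was at 3431, 3340, 2797 and 3081 CPM in ES and 714 to 1401 CPM (median 1045) in FS (log2 difference -1.59, SE 0.18, adjusted p = 5.55e-07). mt-Co1 of complex IV was at 26860, 14620, 14870 and 12970 CPM in ES and 3638 to 6457 CPM (median 5242) in FS (log2 difference -1.74, SE 0.19, adjusted p = 5.22e-07), and mt-Co3 and mt-Atp8 were lower as well (-1.79, SE 0.30, adjusted p = 6.49e-05 and -1.57, SE 0.22, adjusted p = 8.53e-06). ES passage 12, the library with the high rRNA share, had the highest level of mt-Co1, mt-Co3 and mt-Atp8. Without that library 13 of the 13 genes were called lower, with a median of -1.22. The difference of mt-Co3 was -1.06 without ES passage 12.

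Of 77 nuclear genes of these complexes, 56 were lower and 0 higher, beside 29.9% and 32.9% of all genes, with a median of -0.57. This depended on scaling, since total counts gave 24 lower and 6 higher, with a median of -0.21 where all genes stood at 0.40, and leaving out ES passage 12 gave 46 lower and 3 higher. Cox7a1, a muscle isoform of a complex IV subunit, was at 10.3 to 17.6 CPM in ES and 2.25 to 3.43 CPM (median 2.88) in FS (log2 difference -2.24, SE 0.21, adjusted p = 7.11e-08). Uqcrb of complex III (-1.46, SE 0.17, adjusted p = 1.08e-06) and Cox6a1 of complex IV (-1.39, SE 0.10, adjusted p = 2.77e-09) were lower. Sdha (-0.53, SE 0.09, adjusted p = 4.03e-05) and Atp5a1 (-0.43, SE 0.10, adjusted p = 0.00135) were lower by less, and with total counts neither was called (-0.18, adjusted p = 0.293, and -0.06, adjusted p = 0.696). Ndufs1 was not called (-0.27, SE 0.15, adjusted p = 0.143).

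Cholesterol and fatty acid synthesis genes rose, with 19 of 28 higher and 3 lower, beside 32.9% and 29.9% of all genes. The median was 0.96. Hmgcs1, an early enzyme of the pathway, was at 275 to 381 CPM in ES and 621 to 1862 CPM (median 832) in FS (log2 difference 1.70, SE 0.26, adjusted p = 1.82e-05). Mvd, Fdps and Sqle, enzyme genes further along it, were higher (1.72, SE 0.26, adjusted p = 1.68e-05, 1.85, SE 0.21, adjusted p = 8.54e-07 and 1.03, SE 0.17, adjusted p = 4.86e-05). The 3 lower genes were Ebp (-1.42, SE 0.22, adjusted p = 2.12e-05), Insig1 and Scd1. Insig1, which holds the sterol sensor in the endoplasmic reticulum, was at 173, 201, 174 and 189.9 CPM in ES, 74.6, 45.4 and 67.8 CPM in 5ar3 and 1.26, 0.606 and 0.542 CPM in 5ar1 (log2 difference -2.54, SE 0.98, adjusted p = 0.0324), and 5ar1 was far below 5ar3 (log2 difference 5ar1 minus 5ar3 -6.30, SE 0.47, adjusted p = 2.13e-06). Scd1, a fatty acid desaturase, was at 381, 513, 464 and 439 CPM in ES, 52.2, 40.9 and 152 CPM in 5ar3 and 2.001, 3.47 and 3.12 CPM in 5ar1 (log2 difference -3.41, SE 0.87, adjusted p = 0.00274), with the same order of lines (log2 difference 5ar1 minus 5ar3 -4.83, SE 0.44, adjusted p = 7.1e-06). The call of Insig1 between FS and ES was lost without ES passage 13, 15 or 20 (adjusted p up to 0.0565), while both lines remained below ES. The difference of Scd1 was -4.47 without 5ar3 passage 12. The line difference of Scd1 was -4.03 without 5ar3 passage 12.

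Of 16 genes of folate and amino acid metabolism, 5 were higher and 7 lower, beside 32.9% and 29.9% of all genes, with a median of -0.09. Tdh, the threonine dehydrogenase on which naive mouse cells rely, was at 418, 538, 512 and 459.6 CPM in ES and 0.184 to 1.62 CPM (median 0.677) in FS (log2 difference -9.26, SE 0.40, adjusted p = 4.61e-12). The glycine cleavage gene Gldc was not called (0.21, SE 0.25, adjusted p = 0.475), while its partner Amt was lower (-1.34, SE 0.25, adjusted p = 0.000161), and both were higher in 5ar1 than in 5ar3 (1.05, adjusted p = 0.00441, and 1.11, adjusted p = 0.00242). The serine synthesis genes Phgdh and Psat1 were higher (1.30, SE 0.22, adjusted p = 6.22e-05 and 0.72, SE 0.16, adjusted p = 0.000792), as was the mitochondrial folate enzyme Mthfd1l (0.76, SE 0.12, adjusted p = 3.05e-05). Cbs, of transsulfuration, was lower (-2.28, SE 0.17, adjusted p = 2.87e-09).

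Among regulators of the G1 phase, 5 of 19 were higher and 9 lower, beside 32.9% and 29.9% of all genes, with a median of -0.51. Ccnd2, a D-type cyclin, was at 0.415, 0.632, 0.774 and 0.425 CPM in ES and 66.9 to 155 CPM (median 112) in FS (log2 difference 7.56, SE 0.34, adjusted p = 9.44e-12). Ccnd3 was lower (-1.01, SE 0.16, adjusted p = 3.41e-05). Ccnd1 overlapped and was not called (-0.51, SE 0.27, adjusted p = 0.11), and it was called lower without 5ar1 passage 14 (-0.71, adjusted p = 0.0185) or ES passage 12 (-0.75, adjusted p = 0.0128). The inhibitors went both ways: Cdkn1a (-1.81, SE 0.25, adjusted p = 8.6e-06) and Cdkn2a (-7.82, SE 0.57, adjusted p = 2.71e-09) were lower and Cdkn1c, an imprinted gene, higher (4.51, SE 0.37, adjusted p = 1.04e-08). Of the retinoblastoma family, Rb1 was higher (1.01, SE 0.24, adjusted p = 0.00165) and Rbl2 lower (-1.80, SE 0.24, adjusted p = 4.35e-06).

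In the Bcl2 family 7 of 15 genes were higher and 7 lower, beside 32.9% and 29.9% of all genes, with a median of 0.32. The survival gene Bcl2 was at 0.085 to 0.592 CPM in ES and 3.76 to 11.2 CPM (median 6.41) in FS (log2 difference 4.39, SE 0.49, adjusted p = 5.94e-07), and the death gene Bcl2l11, or Bim, at 4.21, 5.74, 5.695 and 8.08 CPM and 28.2 to 48.8 CPM (median 40.5) (log2 difference 2.75, SE 0.20, adjusted p = 2.33e-09). Mcl1, another survival gene, was lower, at 321 to 362 CPM in ES and 121 to 202 CPM (median 158) in FS (log2 difference -1.13, SE 0.12, adjusted p = 4.82e-07). The death genes Bok (1.75, SE 0.27, adjusted p = 2.73e-05) and Bbc3 (0.93, SE 0.23, adjusted p = 0.00169) were higher and Bid (-1.99, SE 0.22, adjusted p = 5.12e-07) was lower.

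Of 11 genes of the Lin28 and Myc axis, 6 were higher and 1 lower, beside 32.9% and 29.9% of all genes. The median was 0.63. Lin28b, the paralog of Lin28a, was at 4.35, 4.16, 4.101 and 5.87 CPM in ES and 112 to 198 CPM (median 145) in FS (log2 difference 5.03, SE 0.20, adjusted p = 1.75e-12). The let-7 targets Hmga1 and Hmga2 were higher (0.71, SE 0.11, adjusted p = 3.3e-05 and 1.25, SE 0.25, adjusted p = 0.000306). Igf2bp3 was lower by a small amount (-0.35, SE 0.13, adjusted p = 0.0287), a call that was lost without ES passage 13, 15 or 20, with adjusted p up to 0.114. Myc was at 0.484 to 2.296 CPM in ES and 1.88 to 16.7 CPM (median 8.03) in FS (log2 difference 2.49, SE 0.58, adjusted p = 0.0013), and Mycn was not called (0.40, SE 0.28, adjusted p = 0.218).

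Of 27 imprinted genes tested, 20 were higher and 3 lower, beside 32.9% and 29.9% of all genes, with a median of 2.94. H19, a maternally expressed RNA, was at 0.207, 0.0452, 0.0456 and 0.17 CPM in ES and at 84.4, 26.3 and 29.96 CPM in 5ar1 and 248, 110.2 and 58.8 CPM in 5ar3 (log2 difference 9.66, SE 1.26, adjusted p = 5.47e-06). Its neighbour Igf2, a growth factor gene expressed from the paternal allele, was at 0 to 1.38 CPM in ES and 9.402 to 112 CPM (median 34.3) in FS (log2 difference 6.86, SE 1.05, adjusted p = 3.12e-05). Meg3, an RNA of the Dlk1 to Dio3 region, was at 66.5, 69.7, 89.9 and 84.6 CPM in ES and 105 to 313 CPM (median 202) in FS (log2 difference 1.33, SE 0.28, adjusted p = 0.000489). Dlk1 of the same region was at least 19.3-fold higher by the mean of the 6 FS libraries, a bound that rests mainly on 5ar3. It was at 0.556, 0.478 and 0.745 CPM in 5ar1 and 9.03, 5.61 and 7.57 CPM in 5ar3 (log2 difference 5ar1 minus 5ar3 -3.63, SE 0.36, adjusted p = 1.97e-05). The difference of H19 was 9.07 without 5ar3 passage 4. The difference of Igf2 was 8.32 without ES passage 12.

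Nnat, a membrane proteolipid gene, was at 0.0691 to 0.425 CPM in ES and 18.7 to 77.9 CPM (median 65.3) in FS (log2 difference 8.31, SE 0.58, adjusted p = 1.63e-09), and Magel2 of the Prader-Willi region was at least 63.2-fold higher. The 3 lower genes included Kcnq1ot1 and Plagl1. Kcnq1ot1, an RNA that silences its region, was at 87.6, 118, 115 and 150.1 CPM in ES and 0.102 to 1.44 CPM (median 0.415) in FS (log2 difference -7.69, SE 0.45, adjusted p = 1.62e-10). It overlaps Kcnq1, whose reads may be mixed with its own. Plagl1, a zinc finger gene, was lower (-2.96, SE 0.75, adjusted p = 0.00273), but its ES libraries were at 5.53, 14.6, 15.4 and 98.2 CPM, with passage 20 far above the others, and the call was lost without that library (-1.47, adjusted p = 0.0552). The third was Slc38a4, an amino acid transporter (-1.87). Whether both alleles were expressed cannot be read from these counts. For Nnat, the ES libraries other than passage 20 held at most 3 counts.

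Few Hox genes were measurable. Of 37 in the table, 8 passed the filter, of which 7 were lower and 0 higher, with a median of -7.04, or -3.45 at the bounds. At their FS levels, given next, Hox genes could hardly pass the filter through FS, so these lower calls partly follow from the filter. The summed level of all 37 was between 21.6 and 31.3 CPM in ES and at most 0.99 CPM in FS, where 22 of them had no count in any library. Hoxb1 did not pass the filter.

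Of 13 genes of MHC class I presentation, 8 were higher and 1 lower, beside 32.9% and 29.9% of all genes. The median was 3.51, or 0.97 with undetected genes at their bound. H2-K1 was at 6.29, 2.21, 2.96 and 3.27 CPM in ES and 54.2 to 79.4 CPM (median 58.9) in FS (log2 difference 4.12, SE 0.25, adjusted p = 2.52e-10), and H2-D1 at 2.004, 1.22, 0.82 and 2.04 CPM and 11.6 to 24.1 CPM (median 17.7) (log2 difference 3.55, SE 0.28, adjusted p = 6.42e-09), although reads of these near-identical class I genes may be shared. The peptide transporter Tap1 was at 0.774 to 2.07 CPM in ES and 9.98 to 23.2 CPM (median 13.6) in FS (log2 difference 3.51, SE 0.32, adjusted p = 4.44e-08). The light chain B2m was higher by less (0.97, SE 0.31, adjusted p = 0.0112), and with passage as a covariate it was 0.23 (adjusted p = 0.458). The loading factor Tapbp was lower (-1.12, SE 0.21, adjusted p = 0.00017).

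Among the lists of markers for other cell types, those of primitive endoderm and trophoblast were low. The primitive endoderm genes Gata4 and Pdgfra were at most 1.55 CPM in each library and not called (-1.24, SE 0.79, adjusted p = 0.185 and -0.85, SE 0.65, adjusted p = 0.262), although Gata4 was called lower with only the libraries compared (-1.23, adjusted p = 0.0399) and Pdgfra with 1 mean per line (-1.34, adjusted p = 0.0278) and in 5ar1 alone (-2.64, adjusted p = 0.00311). Sox7 did not pass the filter, and the list's summed level was 3.62 to 17.8 CPM in FS (median 9.44) and 3.66 to 4.63 CPM in ES (median 3.86), with Dab2 the member called higher (3.12). For trophoblast, Elf5 and Tpbpa were at 0 in every FS and ES library, Gata3 was at most 0.184 CPM and Cdx2 was lower (-4.50, SE 0.82, adjusted p = 0.000126), as was Tfap2a (-3.54, SE 0.55, adjusted p = 2.73e-05), while Ascl2 was higher (3.03, SE 0.32, adjusted p = 2.48e-07). The list's sum was 4.79 to 9.9 CPM in FS and 6.01 to 8.22 CPM in ES. Of the blood and endothelial genes, Cdh5 and Ptprc did not pass the filter, Gata1 was not called (-0.77, SE 0.63, adjusted p = 0.295), Tek (-2.11, SE 0.30, adjusted p = 9.66e-06) and Pecam1 were lower, and Runx1 was higher (adjusted p = 5.46e-05). The sum of that list was 6.2 to 8.11 CPM in FS and 125 to 137 CPM in ES, where Pecam1 alone was at 110 to 129 CPM. For Cdx2, the FS libraries other than 5ar1 passage 14 held at most 3 counts.

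The genes Zscan4c and Zfp352, which mark rare cells of naive cultures that resemble the 2-cell embryo, did not pass the filter and had no count in FS. Eif1a, the member of that list that was tested, was lower (-1.25, SE 0.24, adjusted p = 0.000217) and highest in ES passage 12. The list summed to 92.7 to 208 CPM in FS and 258 to 606 CPM in ES, and at ES passage 12 Eif1a was at 605 CPM of the 606. On the Y chromosome, Eif2s3y was lower (-1.01, SE 0.22, adjusted p = 0.000809), and Kdm5d was at 0.0691, 0.948, 1.32 and 3.87 CPM in ES and 9.401 to 58.5 CPM (median 48.1) in FS (log2 difference 4.71, SE 0.73, adjusted p = 3.22e-05). The difference of Kdm5d was 5.66 without ES passage 20.

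Families of genes with a shared symbol stem, 10 or more tested members each, widened this view, and those named here were chosen after their values were seen. Their counts stand beside 32.9% of all genes higher and 29.9% lower. Of 50 genes of the large ribosomal subunit with the stem Rpl, 40 were lower and 0 higher, with a median of -0.60, and of 47 with the stem Rps 31 were lower and 4 higher, with a median of -0.64. With total counts these became 8 lower and 1 higher for Rpl and 16 lower and 4 higher for Rps. Of 24 Platr genes, long noncoding RNAs tied to pluripotency, 20 were lower and 3 higher, with a median of -5.17, or -3.85 at the bounds. Among cadherins (stem Cdh) 14 of 16 were higher and 1 lower, with a median of 4.42, or 3.88 at the bounds, and among protocadherins (Pcdh) 9 of 10 were higher and 1 lower, with a median of 6.16, or 3.16 at the bounds. Regulators of G protein signalling (Rgs) were higher in 15 of 17 and lower in 1, synaptotagmins (Syt) in 11 of 12 and 1, and calcium channel subunits (Cacna) in 9 of 10 and 1. ADAMTS proteases (Adamts) were higher in 13 of 17 and lower in 2.

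By class of gene in the GENCODE M21 annotation, 4942 of 14408 protein-coding genes were higher and 4492 lower, with a median of 0.03. Over all tested genes the shares were 32.9% higher and 29.9% lower, near those of this class. Of 1353 processed pseudogenes, 152 were higher and 474 lower, with a median of -0.28, and reads of these copies may come from their parent genes. Of 417 antisense genes, 177 were higher and 80 lower, with a median of 0.66, or 0.59 at the bounds, where reads of the sense partner cannot be told apart. Among 57 RNAs of bidirectional promoters 33 were higher and 5 lower, with a median of 1.23, or 0.95 at the bounds.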

How the data were processed

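RNA was taken with Trizol and a PureLink column and made into directional libraries with a NEXTflex kit, per the labels' protocols. The values are raw gene counts deposited by the authors, in 1 table of 34042 genes, and Trim Galore, TopHat2 2.1.0, featureCounts 1.5.0 and the mm10 build are named, per the submitters' processing notes. The order of these tools, the annotation release, the strand setting and the treatment of reads with several matches are not given in the sources used here. The table's 6 columns that match no sample were not used.

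Counts were tested with edgeR 4.0.16 (R 4.3.3, limma 3.58.1), using its filter on low counts, TMM scaling and robust quasi-likelihood tests on all 16 libraries, with 4 group means, or 5 means for the lines. The limit for a call was 0.05 after Benjamini-Hochberg adjustment over all genes tested. A group with at most 3 counts in each library was taken as not detected. The method was tested on simulated data. Every pair of libraries of a line differed by more than counting noise.

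The genes named are the 10 largest changes in each direction called in both lines, without overlap of the groups and reaching a mean of 10 CPM in 1 of them, leaving out predicted genes, clones and pseudogenes. Marked members of 39 lists, up to 2 further members of each list in each direction, and 5 genes of each direction between the lines are also named. The members and lists were chosen with earlier results of these data known. Genes that alone moved in 1 direction of a list, such as Cish, and the genes shown only for their promoters were chosen after their values were seen. Some genes that the rule names are not reported here. Alternatives were DESeq2 1.42.0 and its size factors, total counts, other filters, a test against a log2 change of 1, fewer libraries, no mitochondrial rRNA genes, passage as a covariate, 1 mean per line, each line alone and leaving out each library.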

Additional observations from a re-analysis of the deposited data

Results flagged for a closer look

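In groups of 4 to 10 libraries, a library was singled out when its gap to the nearest other took up more of the group's range than a 95% limit (Dixon's) allows. This met 47 of 437 group values of 234 genes, where chance gives about 1 in 20. All values are CPM, each with the range of the other libraries of its group in brackets, and their causes were not tested.

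In ES passage 12, the level stood below the rest for Rpl10l at 69.4 (96.3 to 101), Tcf7l1 at 6.22 (13.2 to 14.5), Tet1 at 268 (549 to 587) and Ncam1 at 16.6 (28.3 to 30.1). Also in ES passage 12, the level stood below the rest for Hk1 at 129 (180 to 190), Rb1 at 5.94 (8.7 to 8.85) and Rbl2 at 10.2 (13.7 to 14.4). In ES passage 12, the level stood above the rest for Ndufs1 at 227 (137 to 152), mt-Co1 at 26860 (12970 to 14870), Mtf2 at 1076 (432 to 500) and Uqcrb at 56.5 (29.4 to 33.7). Also in ES passage 12, the level stood above the rest for mt-Co3 at 5976 (1453 to 1786), Igf2 at 1.38 (0 to 0.226), Eif2s3y at 220 (91.2 to 111) and Eif1a at 605 (257 to 291). Also in ES passage 12, the level stood above the rest for Pecam1 at 129 (110 to 112). This is the library with 38.1% of its counts in mt-Rnr2.

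In ES passage 20, the level stood above the rest for Sox3 at 0.298 (0.0691 to 0.0911), Spry4 at 6.04 (0.228 to 1.17), Gdf3 at 110 (97.8 to 99.4) and Slc2a1 at 207 (130 to 141). Also in ES passage 20, the level stood above the rest for Lin28b at 5.87 (4.1 to 4.35), Nnat at 0.425 (0.0691 to 0.0911), Slc16a3 at 21.6 (4.6 to 6.22) and Fdps at 8.63 (5.32 to 5.64). Also in ES passage 20, the level stood above the rest for Plagl1 at 98.2 (5.53 to 15.4). In ES passage 20, the level stood below the rest for Gldc at 110 (160 to 161).

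In 5ar3 passage 4, the level stood above the rest for Actc1 at 43.5 (5.69 to 19.3), Bmp4 at 8.7 (0.339 to 1.74), Acta2 at 71.6 (10 to 29.2) and Bcl3 at 0.368 (0 to 0.111). Also in 5ar3 passage 4, the level stood above the rest for Id4 at 5.49 (0.271 to 1.98) and Tdg at 22.6 (16.9 to 19). In 5ar3 passage 4, the level stood below the rest for Car14 at 79.2 (123 to 144).

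In 5ar3 passage 12, the level stood above the rest for Ldb2 at 16.3 (7.86 to 10.2), Tbx3 at 0.914 (0 to 0.141), Prdm1 at 0.381 (0.0368 to 0.159) and Scd1 at 152 (2 to 52.2). In 5ar3 passage 12, the level stood below the rest for Nnat at 18.7 (57.8 to 77.9).

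In 5ar1 passage 10, the level stood above the rest for Chst1 at 141 (56.5 to 88.2), Tfcp2l1 at 9.86 (1.7 to 4.3), Sox3 at 14.6 (5.89 to 8.41) and Ctgf at 68 (1.18 to 26.1).

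In 5ar1 passage 14, the level stood above the rest for Dppa4 at 0.745 (0 to 0.228) and Slc16a3 at 534 (269 to 318).

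In 5ar3 passage 5, the level stood above the rest for Bmpr1a at 199 (147 to 160).

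In ES passage 13, the level stood below the rest for Prdm1 at 18.5 (26.2 to 27).

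In ES passage 15, the level stood below the rest for Pkm at 796 (928 to 952).

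The lines 5ar1 and 5ar3 differed in 40 of the genes named, by edgeR's quasi-likelihood test with Benjamini-Hochberg adjustment over all genes. The values that follow are log2 differences, 5ar1 minus 5ar3, with the adjusted p in brackets. Higher in 5ar1 were Rab25 at 6.81 (3.22e-07), Mal2 at 4.77 (7.1e-06), Sfn at 4.35 (0.00502), Bspry at 4.09 (3.89e-06), Lad1 at 3.61 (3.27e-05) and Esrp1 at 2.72 (6.87e-06). Also higher in 5ar1 were Fgf4 at 2.59 (0.000247), Cdh1 at 2.51 (8.27e-05), Nodal at 2.12 (0.0274), Dcn at 1.92 (0.0186), Etv5 at 1.45 (0.0282) and Dusp6 at 1.20 (0.028). Also higher in 5ar1 were Pou5f1 at 1.12 (0.00262), Amt at 1.11 (0.00242), Gldc at 1.05 (0.00441), Ebp at 0.83 (0.0282) and Skil at 0.66 (0.0139). Lower in 5ar1 were Insig1 at -6.30 (2.13e-06), Six3os1 at -5.70 (0.000859), Greb1l at -5.42 (0.00357), Scd1 at -4.83 (7.1e-06), Foxa2 at -4.34 (0.037) and Sox1 at -4.27 (0.000885). Also lower in 5ar1 were Dlk1 at -3.63 (1.97e-05), Fgfr2 at -2.76 (0.0108), Bmp7 at -2.73 (0.0108), Pdgfra at -2.58 (0.0487), Zeb2 at -2.40 (0.000885) and Id4 at -2.34 (0.0245). Also lower in 5ar1 were Kcnq1ot1 at -2.30 (0.0108), Piezo2 at -1.92 (0.000594), Ncam1 at -1.72 (0.00591), Lama1 at -1.62 (0.00558), Tfap2c at -1.56 (0.0435) and Cdh2 at -1.52 (0.00877). Also lower in 5ar1 were Lrrc4b at -1.21 (0.0106), Cdkn1c at -1.18 (0.00727), Tdrkh at -1.09 (0.0266), Fgfr1 at -0.86 (0.0412) and Ccnd2 at -0.78 (0.0437).

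For 17 of these genes the call was lost in at least 1 of the 6 fits that leave out 1 FS library, and each is given with its highest adjusted p over the fits. Fgfr2 (0.0704) lost it without 5ar1 passage 12 or 5ar1 passage 14. Lrrc4b (0.0564) lost it without 5ar1 passage 12 or 5ar3 passage 4. Kcnq1ot1 (0.0705) lost it without 5ar1 passage 14 or 5ar3 passage 4. Bmp7 (0.0612) and Id4 (0.171) lost it without 5ar1 passage 12, 5ar1 passage 14 or 5ar3 passage 4. Skil (0.0842) lost it without 5ar1 passage 12, 5ar3 passage 4 or 5ar3 passage 5. Nodal (0.172) lost it without 5ar1 passage 14, 5ar3 passage 4 or 5ar3 passage 5. Dcn (0.0875), Dusp6 (0.184), Etv5 (0.131), Tdrkh (0.121) and Tfap2c (0.203) kept the call only without 5ar1 passage 10 or 5ar3 passage 12. Ebp (0.177) kept the call only without 5ar1 passage 10 or 5ar1 passage 12. Foxa2 (0.138) kept the call only without 5ar3 passage 12. Ccnd2 (0.192) and Fgfr1 (0.197) kept the call only without 5ar1 passage 10. Pdgfra (0.191) lost the call in each of the 6 fits. The difference of Etv5 between the lines moved to 2.25 without 5ar3 passage 12. The difference of Id4 between the lines moved to -3.04 without 5ar1 passage 10 and -1.50 without 5ar3 passage 4. The difference of Nodal between the lines moved to 1.51 without 5ar1 passage 14 and 3.34 without 5ar3 passage 12.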

How the results depend on the processing

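The counts of genes called moved little with most settings. Testing for changes beyond 1 on the log2 scale left 5810 genes for FS against ES, 5408 for 5ar1 against ES, 5858 for 5ar3 against ES and 128 between the lines. Between the lines, DESeq2 gave 1292 and a fit of only the libraries compared 179. Leaving out each library gave between 10793 and 11901 genes for FS against ES, 9387 and 10662 for 5ar1, 10372 and 11461 for 5ar3, and 289 and 1567 between the lines. The 234 named genes gave 2793 values over 12 settings, and direction was compared only for genes called in the main fit or in the setting. Of these values, 2669 stayed on their side of the threshold, 94 lost the call, 25 gained it and 5 turned. Those that turned were Rab25 with 1 mean per line (-0.83, adjusted p = 0.0192) and in 5ar3 alone (-4.24, adjusted p = 1.67e-07), Sox1 in 5ar1 alone (-0.21, adjusted p = 0.777), Bspry in 5ar1 alone (0.70, adjusted p = 0.0278) and Pou5f1 in 5ar3 alone (-0.66, adjusted p = 0.00441). Their causes were not tested. With passage as a covariate the calls of 11 genes were lost (Cyp26a1, Foxa2, Sox1, Cdh1, Hk2, B2m, Ncam1, Igf2bp3, Plagl1, Lad1 and Greb1l) and of 3 gained (Etv4, Id3 and Mycn). With only the FS and ES libraries fitted, the calls of Spry4, Insig1, Bmp7, Igf2bp3 and Lad1 were lost, with edgeR adjusted p between 0.0585 and 0.0726, and that of Gata4 was gained. When 1 library was left out, 2291 of 2340 values stayed on their side of the threshold and no called value turned. Genes called in neither fit could change sign, as Slc2a3 did without 5ar1 passage 10 (0.19 to -0.03). Of 310 line differences of 40 genes, 258 kept their call and 52 lost it. Depth limits genes near 3 counts in a library, whose folds are bounds. No paired analysis was possible because the labels give passages of different lines and no shared replicate numbers.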
